A study of Mus musculus with 6 samples.

Results

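The 8 genes described here encode signals that gut epithelium sends to the mesenchyme beneath it, together with the hedgehog receptor. They are the hedgehog ligands Shh and Ihh, the receptor Ptch1, the platelet-derived growth factor genes Pdgfa, Pdgfb and Pdgfc, and the fibroblast growth factor genes Fgf9 and Fgf18. They were chosen by symbol, for their function, with earlier results of these data known. All 8 were found among the 24930 genes of the deposited table. The table holds 6 libraries of messenger RNA from mouse crypt epithelium. 3 libraries came from crypts carrying a heterozygous gain-of-function (GOF) β-catenin allele, written β-catenin GOF/+, and 3 from control crypts, all at day 4 after induction. The sources used here do not give the promoter or agent that induced the allele, the genotype of the controls, or the strain and age of the mice. Nothing in the labels ties a library to a separate animal, so the tests read the spread from library to library, part of which may be technical. The series title names stromal cells that express Pdgfra, a PDGF receptor gene, and the comparison was read here for the epithelial side of that exchange.

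Hedgehog ligands are secreted by the epithelium and bind PTCH1, which holds the transducer SMO inactive until a ligand arrives. GLI transcription factors then act in the receiving cell, and Ptch1, Gli1 and Hhip are common targets. In the postnatal gut, Ihh is the hedgehog ligand of differentiating absorptive cells, Shh is mostly restricted to the crypt base, and the receiving cells are mainly mesenchymal. PDGF-A and PDGF-C bind the receptor PDGFRA, and PDGF-B also binds PDGFRB. FGF9 and FGF18 act on FGF receptors of neighbouring cells and use the ERK pathway, whose output and feedback genes include Dusp6, Etv4, Etv5 and Spry4.

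Promoter windows are shown for 3 of the genes. Ptch1 and Fgf9 stood lower in every mutant library, and Pdgfc had the largest positive difference of the 8 genes. Each window runs from 250 bases before to 50 bases after a RefSeq gene start, 5′ to 3′ on the gene's strand, in build GRCm38.p6. The deposited values carry the older build mm9 in their notes, so no position was carried over between them. The searched letters were CTTTG, the core of the site bound by TCF factors, the DNA-binding partners of β-catenin; CTTTGAT, a longer TCF site that contains that core; and GACCACCCA, a GLI site. All were searched on both strands, and capitals mark the core on either strand.
Ptch1, chr13:63565686-63565985, minus strand: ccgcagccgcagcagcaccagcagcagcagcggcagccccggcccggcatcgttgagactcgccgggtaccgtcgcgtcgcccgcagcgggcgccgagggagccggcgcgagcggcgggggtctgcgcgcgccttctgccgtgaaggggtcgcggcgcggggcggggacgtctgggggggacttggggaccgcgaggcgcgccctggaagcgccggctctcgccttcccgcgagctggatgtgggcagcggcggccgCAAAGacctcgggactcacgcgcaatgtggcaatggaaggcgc
Fgf9, chr14:58072436-58072735, plus strand: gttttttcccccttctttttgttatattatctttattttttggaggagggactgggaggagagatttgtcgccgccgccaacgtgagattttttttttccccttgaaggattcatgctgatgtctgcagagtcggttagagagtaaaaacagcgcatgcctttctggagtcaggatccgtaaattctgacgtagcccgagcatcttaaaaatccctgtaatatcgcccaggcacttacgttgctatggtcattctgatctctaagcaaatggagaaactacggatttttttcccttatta
Pdgfc, chr3:81036166-81036465, plus strand: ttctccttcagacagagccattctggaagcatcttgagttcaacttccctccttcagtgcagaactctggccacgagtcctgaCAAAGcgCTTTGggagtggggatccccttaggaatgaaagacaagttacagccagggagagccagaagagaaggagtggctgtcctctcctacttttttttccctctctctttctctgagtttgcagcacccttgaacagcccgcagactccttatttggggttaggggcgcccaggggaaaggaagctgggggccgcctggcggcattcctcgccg
The Ptch1 window is rich in G and C, at 76.3% of its 300 bases, against 42.7% in the Fgf9 window and 55% in the Pdgfc window. The median over all 32851 RefSeq windows was 52.7%. The core occurred once in the Ptch1 window, 2 times in the Pdgfc window and 0 times in the Fgf9 window, and it is common, being present in 53.9% of all windows. Windows were found for 6 of the 8 genes, 7 windows in all, and the longer TCF site and the GLI site occurred in 0 of them (3.73% and 0.253% of all windows held these). Shh and Pdgfb have no window in the table. A match of letters is a description of the window and not a bound site.

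Abundances in the table were normalized by the authors and are called units below. In genes with 1 annotated transcript the lowest values, multiplied by the transcript length, fell in equal steps, which is how whole reads divided by length look. Between 76.7% and 79.9% of such values lay within 0.1 of a whole number of steps. The step and a length offset were fitted per library for this closeness, so the share is no independent check. On this reading, values of different genes were compared per length and the reads behind a low value were estimated. Reads per unit, relative to control replicate 1, were lowest in mutant replicate 3, at 0.89, and highest in control replicate 3, at 1.44. The targeted gene Ctnnb1 had 256 ± 15.1 units in control libraries and 261 ± 24.4 in mutant libraries (SD, n = 3 each), counted over the gene as a whole, so the mutant allele itself is not read. Epithelial markers were high in every library, with summed levels of 8 genes between 4680 and 7111 units. Levels of Xist and Y-linked genes marked control replicates 1 and 2 and mutant replicate 1 as male, and the other 3 libraries as female.

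In control crypts, Ihh and Pdgfa were the most abundant of the 8 genes and overlapped in level, at means of 18.6 and 14.5 units. Ptch1 followed at 4.88 units, then Fgf9 at 1.03, Pdgfb at 0.708, Pdgfc at 0.363, Shh at 0.178 and Fgf18 at 0.0337 units. From Pdgfa downward, no 2 neighbours in this order overlapped among the control libraries. In mutant crypts Pdgfc ranked above Pdgfb and Fgf9, and Fgf18 above Shh, but the values of Ptch1 and Pdgfc, Pdgfc and Pdgfb, Pdgfb and Fgf9, and Fgf18 and Shh overlapped between neighbours. Ihh, Pdgfa and Ptch1 averaged 1 unit or more over the 6 libraries and were tested with limma among 11837 such genes. The 5 genes under that mean were tested in a second limma fit over all 19202 genes detected in any library. In limma, 0 of the 8 genes passed an adjusted p of 0.05 in these fits, in which 0.0169% and 0% of genes passed.

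**Figure D1:**
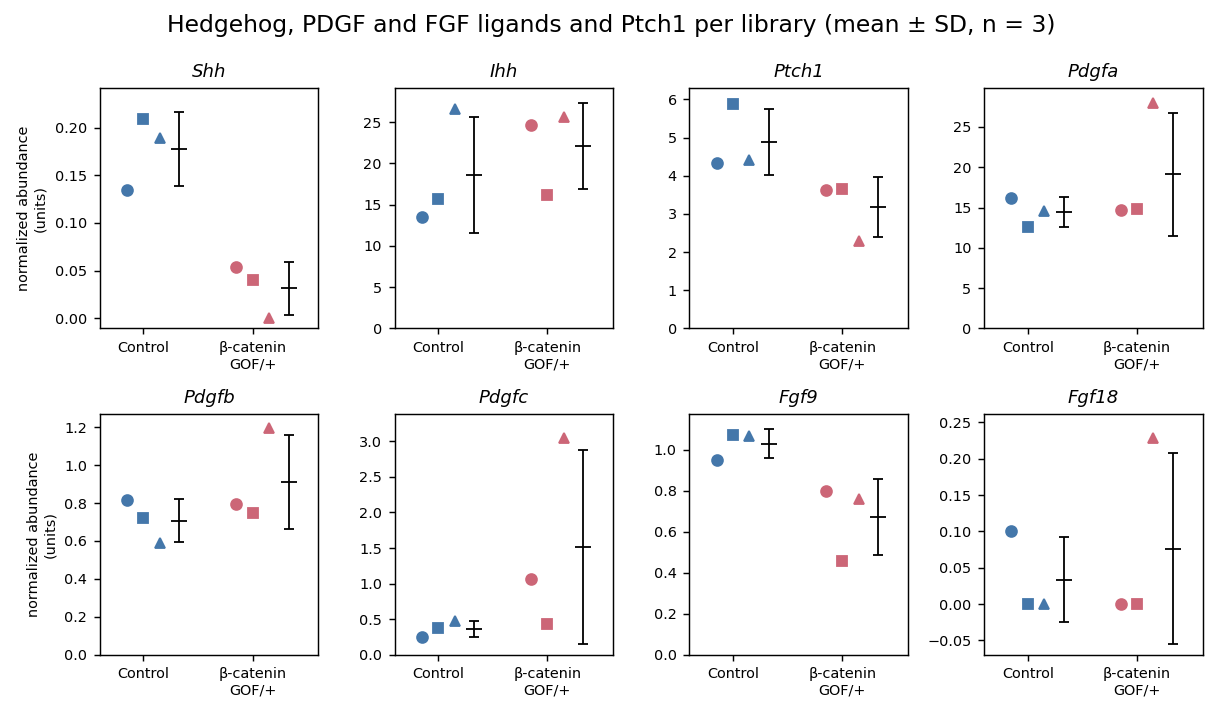
Normalized abundance (units, vertical axis) of the 8 genes in 3 control (blue) and 3 β-catenin GOF/+ (red) libraries; circles, squares and triangles are replicates 1, 2 and 3, and bars give mean ± SD. The 3 mutant values of Shh, Ptch1 and Fgf9 lie below the 3 control values, and mutant replicate 3 is the highest library for Pdgfa, Pdgfb and Pdgfc.

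Of the hedgehog ligands, Shh had groups that lay apart and Ihh had groups that overlapped, and neither passed the adjusted test. Shh, the ligand of the crypt base, stood at 0.135, 0.209 and 0.189 units in control replicates 1 to 3 and at 0.0540, 0.0398 and 0 units in mutant replicates 1 to 3. The groups did not overlap, and the control mean was 5.68 times the mutant mean. These are very few molecules. From the transcript length the values gave 5.20, 8.39 and 10.6 reads in control and 2.10, 2.11 and 0 in mutant replicates. A length factor of 0.951 was then chosen to bring these 6 estimates as close as possible to whole numbers. The closeness is therefore no check of the counts. The estimates came within 0.0543 of 5, 8 and 10 reads in control and 2, 2 and 0 reads in mutant replicates. That makes 23 reads (exact 95% Poisson interval 14.6 to 34.5) against 4 (1.09 to 10.2), at summed relative depths of 3.47 and 3.27. The intervals cover counting error only, and reads without molecular identifiers are not independent molecules. On the log2(value + 1) scale, which compresses values this low, the difference was -0.19 ± 0.04 (SE), with p = 0.00286 and an adjusted p of 0.518 in limma, and the exact two-sided permutation test gave p = 0.10, the smallest that 3 against 3 libraries allow. Over 13 alternative settings the adjusted p in limma ran from 0.205 to 0.947. Between libraries of the same sex the log2 difference of Shh was -0.15 in males and -0.22 in females. With 1 mutant library among the males and 1 control library among the females, and with groups that do not overlap, the direction within each sex is fixed, and the same holds for the values by sex given for Ptch1 and Fgf9.

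**Figure D2:**
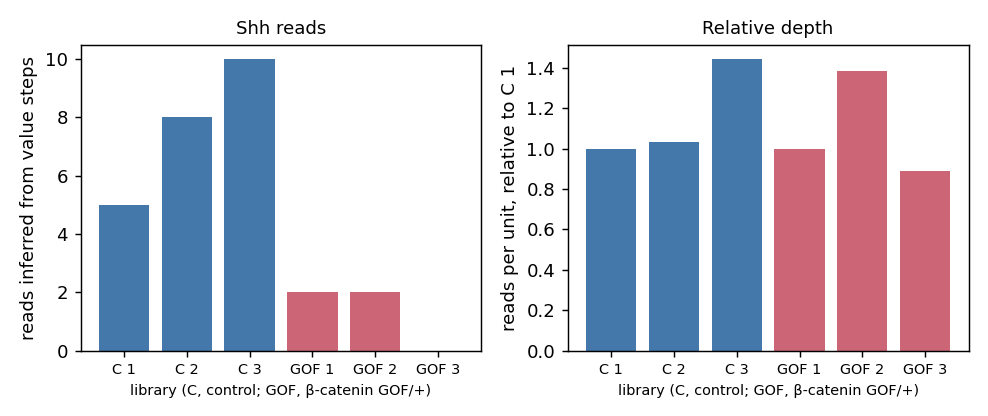
Left, reads of Shh in each library as inferred from the steps of the deposited values; right, reads per unit of each library relative to control replicate 1 (C, control; GOF, β-catenin GOF/+). The 3 control libraries hold 5, 8 and 10 reads and the 3 mutant libraries 2, 2 and 0. Relative reads per unit are 1, 1.03 and 1.44 in control replicates 1 to 3. They are 1, 1.38 and 0.89 in mutant replicates 1 to 3.

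Ihh, the ligand of the differentiating compartment, had 13.4, 15.6 and 26.6 units in the controls and 24.6, 16.1 and 25.6 in the mutant replicates 1 to 3. The groups overlapped: control replicate 3 and mutant replicates 1 and 3 were high, and the other 3 libraries were low. The means were 18.6 ± 7.05 and 22.1 ± 5.19 units (SD, n = 3 each), and the log2 difference was 0.27 ± 0.29 (SE; adjusted p = 0.713 in limma). It was 0.08 without control replicate 1, 0.18 without control replicate 2 or mutant replicate 1, 0.16 without mutant replicate 3, 0.47 without mutant replicate 2 and 0.55 without control replicate 3. Some 445 to 1276 reads lay behind each value, taking the length of the longest coding transcript, so counting error is small beside this spread. The same 3 libraries were high in the summed level of 10 enterocyte markers. It was 3256, 4574 and 9021 units in the controls and 11357, 5281 and 22519 in the mutant replicates. The listed marker Sis did not follow, at 286 units in mutant replicate 3 against 362 in control replicate 2. Among tested genes, those with the pattern most like Ihh over the 6 libraries were Dgat1, a triglyceride synthesis enzyme gene (Pearson r = 0.994), and Enpep, which encodes the brush border aminopeptidase A (r = 0.992). These r are descriptions over 6 libraries, picked from all 11837 tested genes.

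Ptch1 encodes the receptor that binds the hedgehog ligands. It was measured at 4.34, 5.89 and 4.42 units in the controls and 3.64, 3.64 and 2.29 in the mutant replicates 1 to 3, with about 224 to 701 reads a library. No mutant library reached the lowest control library, and mutant replicate 3 was the lowest of all. The mean went from 4.88 ± 0.871 to 3.19 ± 0.780 units (SD, n = 3 each), a ratio of 0.653. The log2 difference was -0.50 ± 0.20 (SE) with p = 0.0434 and an adjusted p of 0.589 in limma, and the exact permutation test gave p = 0.10. Of the 3 genes tested in the first fit, Ptch1 was the 1 with every mutant value below every control value and the 1 with an unadjusted p under 0.05. Over all tested genes these shares were 8.37% and 8.31%. The difference was -0.39 between male and -0.47 between female libraries, and it stayed between -0.58 and -0.33 in the 6 fits that each left out a library. Without mutant replicate 3 the mutant mean was 0.746 of the control mean. The tested genes with the most similar pattern were Xpc, a DNA repair gene, and Twsg1, which encodes a BMP-binding protein (r = 0.998 and 0.997 over 6 libraries).

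Among the other hedgehog genes, the signal transducer was measured at several units while targets of the pathway were near 0. Smo had 5.71, 6.60 and 4.40 units in the controls and 4.88, 6.22 and 2.99 in the mutant replicates, with overlap between the groups. The target Gli1 had 0.0590, 0.0191 and 0 units in the controls and 0.0197, 0 and 0.111 in the mutant replicates, and Hhip, a ligand-binding inhibitor, was listed at 0 in 5 of 6 libraries. Gli2 was at 0 in all of them. Ptch1 was thus read at units of 2 and more in libraries where Gli1, Gli2 and Hhip were near 0. Of 24 further hedgehog genes 23 were detected and 7 tested, of which 3 were higher and 4 lower. In limma 0 of the 7 passed at an adjusted p of 0.05 and 1 at an unadjusted p of 0.05 (0.0169% and 8.31% of all tested genes), and their median log2 difference was -0.14, beside -0.02 over all genes tested. The 1 was Spop, encoding an adaptor of a ubiquitin ligase that acts on GLI proteins, at 56.0, 53.0 and 40.7 units in the controls and 35.5, 41.4 and 28.9 in the mutant replicates. The groups overlapped there (log2 difference -0.49 ± 0.19, adjusted p = 0.589 in limma). Gas1, a co-receptor gene below the level for the first test, went from a mean of 0.0540 to 0.265 units (adjusted p = 0.656 in limma).

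Genes that mesenchyme switches on in response to hedgehog, 8 in the list, were all detected, and 0 of them reached a mean of 1 unit. Nkx2-3, a transcription factor gene of gut mesenchyme, was at 0, 0 and 0.0246 units in the controls and 0.176, 0.0775 and 0.316 in the mutant replicates (adjusted p = 0.653 in limma). Bmp4 had means of 0.111 and 0.247 units with overlapping groups. Markers of stroma stood higher in the same mutant libraries. For 12 of 14 stromal markers the lowest mutant value exceeded the highest control value, and the 14 markers summed to 6.69 to 12.6 units in control and 22.9 to 51.8 units in mutant libraries. Over all genes every mutant value lay above every control value in 8.34% of those averaging 1 unit or more, as 7 of the 14 did, and in 8.21% of the detected genes below that mean. The list includes the receptor genes Pdgfra and Pdgfrb described with the PDGF ligands; without them the count was 11 of 12 and the sums were 6.39 to 11.8 and 22.4 to 50.5 units. The matrix gene Mgp, for example, had 0, 0 and 0.110 units in the controls and 3.00, 3.72 and 6.39 in the mutant replicates. In bulk RNA a change in the number of cells of a type and a change in RNA per cell cannot be told apart.

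**Figure D3:**
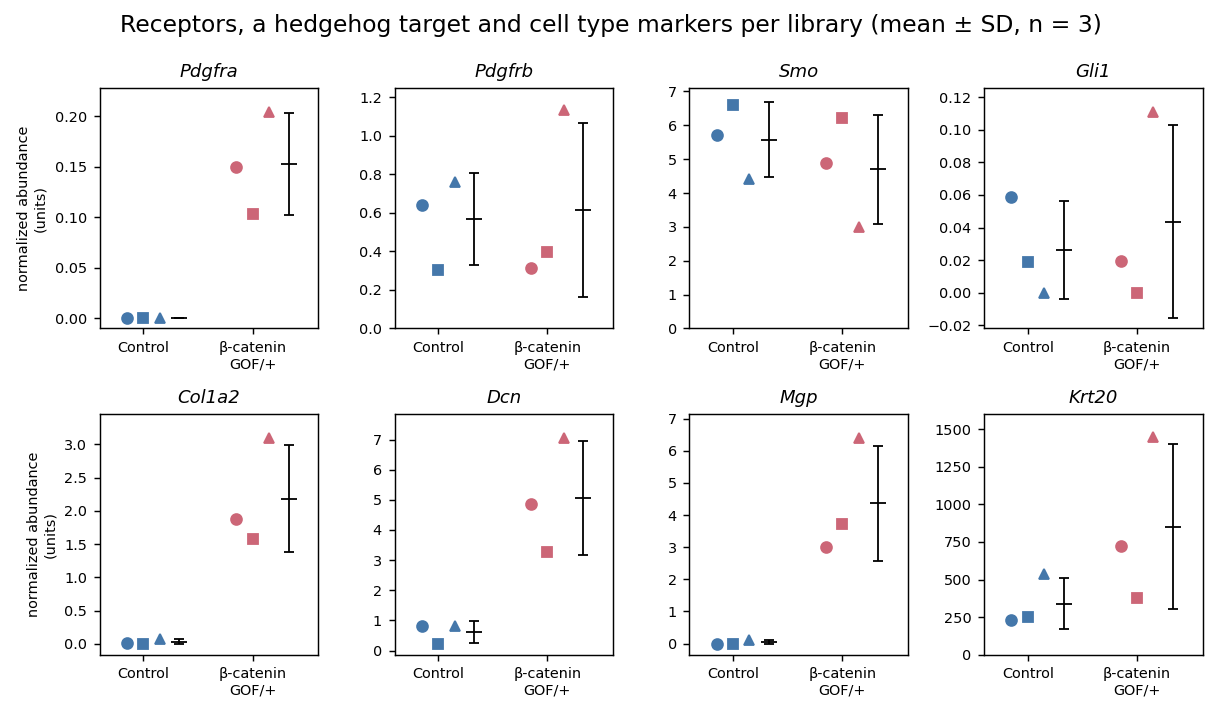
Normalized abundance (units, vertical axis) of the PDGF receptor genes, the hedgehog genes Smo and Gli1, the stromal markers Col1a2, Dcn and Mgp and the enterocyte marker Krt20; symbols, colours and bars (mean ± SD, n = 3) follow the plot of the 8 genes. Pdgfra is at 0 in the 3 control libraries and the stromal markers are higher in the 3 mutant libraries, while Smo, Gli1, Pdgfrb and Krt20 overlap between the groups.

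Pdgfa, Pdgfb and Pdgfc were each highest in the same mutant library, while the further ligand gene Pdgfd, near 0 throughout, was not. Pdgfa, the most abundant of them, had 16.2, 12.5 and 14.6 units in the controls and 14.7, 14.8 and 27.9 in the mutant replicates 1 to 3. Mutant replicates 1 and 2 lay within the control range and only replicate 3 stood above it, at 1.93 times the control mean. The log2 difference was 0.32 ± 0.26 (SE; adjusted p = 0.644 in limma), and it fell to 0.03 without mutant replicate 3, when the mean of the 2 remaining mutant libraries was 1.02 times the control mean. The patterns most like Pdgfa were those of Clu, a revival stem cell marker, and Gcnt3, a mucin glycosylation enzyme gene (r = 0.997 and 0.995 over 6 libraries). For both genes, too, mutant replicate 3 was the highest library, at 15.9 and 57.3 units.

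Pdgfc encodes a ligand that is secreted in latent form and is activated by proteases such as tissue plasminogen activator. It had 0.245, 0.373 and 0.472 units in the controls and 1.06, 0.437 and 3.04 in the mutant replicates 1 to 3, for which about 12 to 132 reads a library were estimated. Mutant replicates 1 and 3 exceeded every control library, and mutant replicate 2 lay inside the control range. The mean was 0.363 ± 0.114 units in control libraries and 1.51 ± 1.36 in mutant libraries (SD, n = 3 each), 4.17 times as high. The log2 difference was 0.75 ± 0.36 (SE), with p = 0.0825 and an adjusted p of 0.661 in limma, and the exact permutation test gave p = 0.20. Without mutant replicate 3 the mean ratio was 2.07 and the log2 difference 0.34. Stromal cells can also express Pdgfc. The summed stromal markers were highest in mutant replicate 3 and next in replicate 1, at 51.8 and 27.7 units, and lowest of the 3 in replicate 2, at 22.9 units. Their part in the Pdgfc values was not tested.

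Pdgfb, which signals through the receptor PDGFRB on mural cells, had 0.814, 0.720 and 0.589 units in the controls and 0.793, 0.748 and 1.20 in the mutant replicates. The groups overlapped, and mutant replicate 3 was again the highest. The log2 difference was 0.16 ± 0.12 (SE; adjusted p = 0.722 in limma), on about 30 to 43 reads a library, and it was 0.05 without mutant replicate 3. Endothelial cells are a known source of Pdgfb. For control replicates 1 to 3 the summed level of 6 endothelial markers was 1.08, 0.488 and 0.938 units. For mutant replicates 1 to 3 it was 0.542, 0.446 and 2.14 units, so this sum, too, was highest in mutant replicate 3. Taken singly, 0 of the 6 markers separated the groups. The part of endothelial cells in the Pdgfb values was not tested.

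The PDGF receptors were at most 1.14 units in any library. Pdgfra was listed at 0 in all 3 control libraries and at 0.149, 0.103 and 0.204 units in mutant replicates 1 to 3, so the groups did not overlap (adjusted p = 0.509 in limma). Pdgfrb had 0.640, 0.305 and 0.761 units in the controls and 0.315, 0.396 and 1.14 in the mutant replicates, with overlap. Plat, the gene of tissue plasminogen activator, was at 0.0861, 0 and 0.121 units in the controls and 0.375, 0.361 and 2.33 in the mutant replicates. Every mutant value of Plat lay above the control values, with an adjusted p of 0.661 in limma. Among the 7365 detected genes with a mean under 1 unit, 8.21% separated the groups in this direction, as Pdgfra and Plat did. These were also the 2 genes of smallest p in limma in the PDGF list, a rule by which genes were named here. Their separation is therefore partly a matter of selection. Of the 6 further PDGF genes only Furin, a protease gene whose product processes PDGF precursors, reached the first test. It had 13.8, 13.9 and 17.7 units in the controls and 21.0, 14.5 and 33.1 in the mutant replicates, which overlapped (log2 difference 0.50 ± 0.29, adjusted p = 0.590 in limma).

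**Figure D4:**
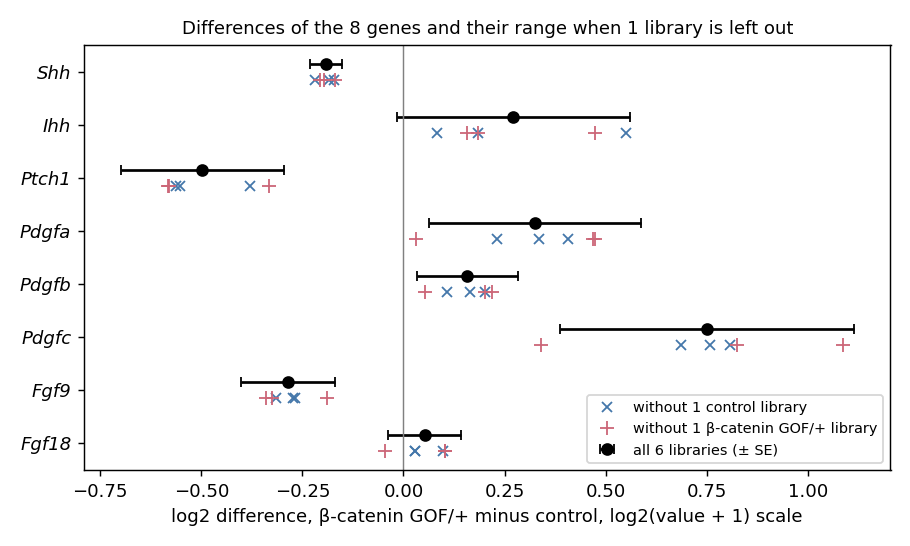
Log2 difference of each of the 8 genes, β-catenin GOF/+ minus control, on the log2(value + 1) scale (horizontal axis); black points with bars are the estimate from all 6 libraries ± SE, crosses the estimates without 1 control library and plus signs those without 1 mutant library. Shh, Ptch1 and Fgf9 stay below 0 and Pdgfc above 0 in each fit, Pdgfa falls to 0.03 and Fgf18 to -0.05 without mutant replicate 3.

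Fgf9, the more abundant FGF ligand of the pair, lay below every control value in each mutant library without passing the adjusted test. It had 0.948, 1.07 and 1.07 units in the controls and 0.796, 0.459 and 0.759 in the mutant replicates 1 to 3. The 3 control values lay close together and the groups did not overlap. The mean was 1.03 ± 0.0697 units in control libraries and 0.672 ± 0.185 in mutant libraries (SD, n = 3 each), a ratio of 0.653, on about 31 to 76 reads a library. The log2 difference was -0.29 ± 0.12 (SE), with p = 0.0473 and an adjusted p of 0.661 in limma, and the exact permutation test gave p = 0.10. It ran from -0.34 to -0.19 when each library was left out, and was -0.16 between male and -0.37 between female libraries. Among the 5 genes with a mean under 1 unit, Shh and Fgf9 were the 2 with every mutant value below every control value and the 2 with an unadjusted p under 0.05. The shares over all 7365 detected genes of such low mean were 3.58% and 7.2%.

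Fgf18 was barely detected. It had 0.101 units in control replicate 1 and 0.228 units in mutant replicate 3 and was listed at 0 in the other 4 libraries. With a length factor of 0.757, chosen as for Shh, these values correspond to 1 read and 2 reads. Before it the estimates were 1.31 and 2.66 reads. At this depth a difference between the groups was not detectable (adjusted p = 0.846 in limma), and its sign depended on mutant replicate 3, without which the log2 difference was -0.05.

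Of the 20 other listed genes of the FGF family, not all of which encode receptor ligands, 16 were detected and 2, Fgf1 and Fgf11, reached the first test. Fgf1, a ligand with broad receptor use, had 12.0, 2.69 and 15.3 units in the controls and 1.81, 1.97 and 1.91 in the mutant replicates. Control replicate 2 lay near the mutant libraries and the other control libraries far above, yet the groups did not overlap (log2 difference -1.67 ± 0.52, adjusted p = 0.589 in limma). Over all tested genes, 8.37% had every mutant value below every control value. Without control replicate 2, Fgf1 passed at a log2 difference of -2.33 and an adjusted p of 0.0488 in limma. In that fit 4 of 11837 genes passed. Leaving out the control library nearest the mutant values narrows the control spread, so this pass is no independent support. Fgf23, a hormone-like FGF, had means of 0.0308 units in control and 0.141 in mutant libraries. Fgf15, the ileal FGF hormone, chosen after its values were seen, had 0.0845, 0.0411 and 0.326 units in the controls and 0.0849, 0.718 and 2.24 in the mutant replicates, and the groups overlapped.

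Of the FGF receptors, Fgfr2, Fgfr3 and Fgfr4 were well detected and Fgfr1 was near 0. Fgfr3 had 11.0, 7.45 and 10.3 units in the controls and 9.55, 8.73 and 4.29 in the mutant replicates, and Fgfr2 4.56 ± 0.620 and 4.38 ± 0.838 units (SD, n = 3 each). Fgfr4 had 3.38 ± 1.30 and 5.09 ± 2.56 units, and Fgfr1, the main receptor of mesenchyme, had 0.0742 ± 0.0265 and 0.173 ± 0.0875 units. The groups overlapped for each of the 4 receptors, and the adjusted p in limma ran from 0.635 for Fgfr4 to 0.919 for Fgfr2.

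The ERK pathway is shared by FGF and other growth factor receptors. Of its output and feedback genes Dusp6, Etv4, Etv5 and Spry4, 0 of the 4 passed the adjusted threshold in limma. Dusp6, encoding an ERK phosphatase, had 7.99, 7.16 and 6.34 units in the controls and 19.9, 13.2 and 91.3 in the mutant replicates. The control values were close together, and even the lowest mutant library exceeded them (log2 difference 1.89 ± 0.64, adjusted p = 0.589 in limma). Etv5, an ETS factor gene, had 1.38, 1.92 and 1.30 units in the controls and 2.08, 2.68 and 2.32 in the mutant replicates. Its groups did not overlap (adjusted p = 0.589 in limma), and mutant replicate 3 was not the highest. Etv4 had 1.21, 0.712 and 0.559 units in the controls and 1.09, 3.14 and 7.89 in the mutant replicates, with mutant replicate 1 inside the control range. Spry4, below the level for the first test, had 0.201, 0.180 and 0.0866 units in the controls and 0.310, 0.308 and 1.85 in the mutant replicates. Etv4, Etv5 and Spry4 were chosen after their values were seen. Spry1, Spry2, Spred1 and Spred2, other feedback inhibitors of the same pathway, had overlapping groups with log2 differences of 0.08, -0.01, -0.16 and -0.02.

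**Figure D5:**
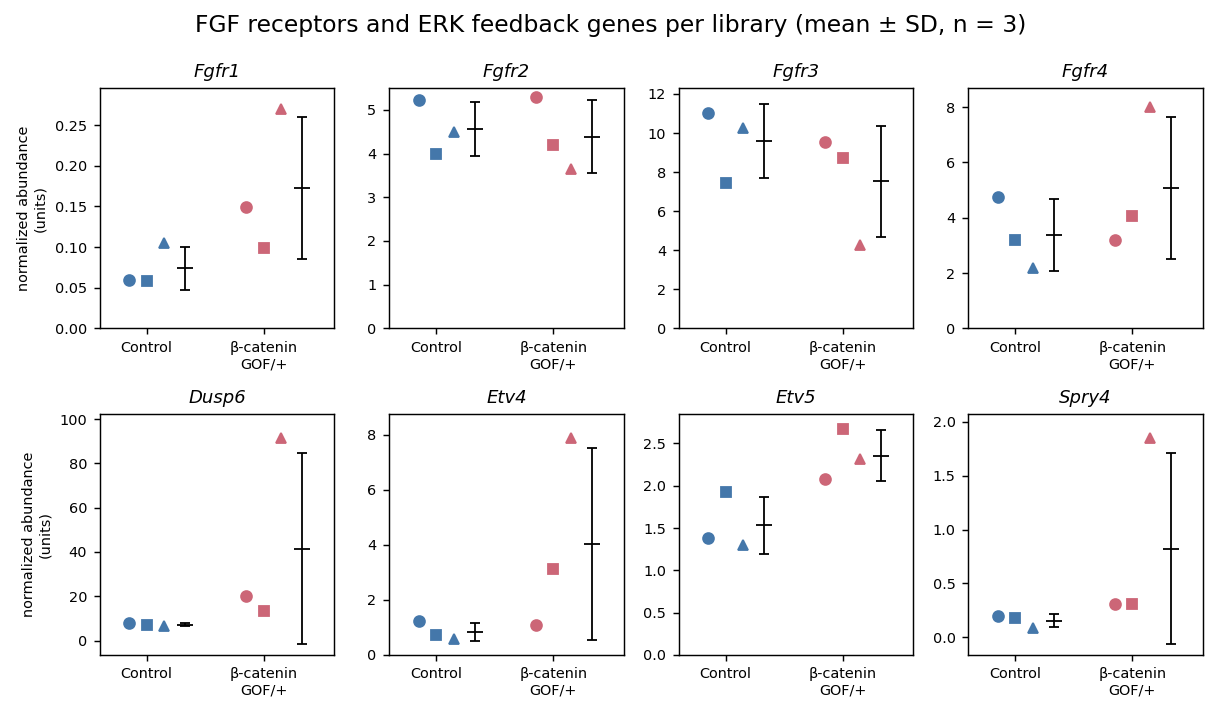
Normalized abundance (units, vertical axis) of the 4 FGF receptor genes and of the ERK output and feedback genes Dusp6, Etv4, Etv5 and Spry4. Symbols, colours and bars (mean ± SD, n = 3) follow the plot of the 8 genes. The receptors overlap between the groups, and the mutant values of Dusp6, Etv5 and Spry4 lie above the control values, with mutant replicate 3 far up for Dusp6.

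Fgfbp3, encoding a carrier protein that binds FGFs, went the other way, at 1.47, 2.01 and 3.03 units in the controls and 0.650, 0.574 and 1.07 in the mutant replicates. Every mutant value lay below the control values (log2 difference -0.83 ± 0.24, adjusted p = 0.589 in limma). Of the 19 FGF receptor and signalling genes 14 were tested, and 5 were higher and 9 lower, with a median log2 difference of -0.03 beside -0.02 over all genes. Over the 24 tested genes of the hedgehog, PDGF and FGF lists 10 were higher and 14 lower, and this turned to 14 higher and 10 lower with array weights, with sex as a covariate or without control replicate 2. Of the 14 tested FGF receptor and signalling genes, 0 passed at an adjusted p of 0.05 in limma. At an unadjusted p of 0.05, 3 of them passed, namely Dusp6, Etv4 and Fgfbp3, where 8.31% of all tested genes had such a p. Every mutant value lay above every control value for 2 of these FGF genes and below for 1. Over all tested genes these shares were 8.34% and 8.37%.

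Markers of other crypt cell types also differed between the libraries. The 8 enteroendocrine markers summed to 177 to 216 units in control and 274 to 401 units in mutant libraries, and for 5 of the 8 the lowest mutant value exceeded the highest control value (8.34% of all tested genes). The 7 tuft cell markers summed to 33.7 to 93.1 units in control and 27.4 to 32.8 units in mutant libraries, with 3 of 7 below in every mutant library (8.37% of all tested genes and 3.58% of detected genes of lower mean). The 6 stem cell markers summed to 559 to 1313 units in control libraries and to 623, 834 and 126 units in mutant replicates 1 to 3. Olfm4 was the largest part of each sum, at 54.6 units in mutant replicate 3. That library also had the lowest Ptch1 and was the 1 with Shh at 0. Lgr5, Olfm4, Ascl2 and Smoc2 were lowest in it, while Axin2 and Rnf43 were highest in it, at 35.4 and 20.5 units. The 8 Paneth cell markers summed to between 104417 and 407420 units in control and between 39584 and 181406 units in mutant libraries. The part of these cell types in the values of the 8 genes was not tested.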

How the data were processed

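RNA of crypt epithelium was measured in 6 libraries, 3 per group, grouped and numbered by sample title. Columns were matched by group and replicate number, the columns named for a heterozygous exon change going to the only group that is not control, and 0 value columns lacked a sample. The deposited values are a normalized signal per gene made by the authors. Tools listed in the submitters' processing notes are DESeq2 1.40.1 and kallisto 0.46.1, with build mm9; their roles are not given there. Library totals ran from 645225 to 1268771 units.

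Values were tested as log2(value + 1) with limma 3.58.1 in R 4.3.3 (mean-variance trend, group as the term, Benjamini-Hochberg adjustment over all genes of the fit at 0.05), first over genes averaging 1 unit or more and, for lower genes, over all genes detected in any library. The test was checked on simulated data. Changes of low genes are understated on this scale.

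Reads were estimated from value × (transcript length − an offset fitted per library), with lengths of single-transcript genes from GENCODE M21 (GRCm38). Other genes used their longest coding transcript, so their reads are approximate, and the authors' annotation may differ. For Shh and Fgf18, 1 length factor per gene was then picked to bring the estimates closest to whole numbers. Marker sums add units. Tables and figures used Python 3.11.15, pandas 2.3.3 and matplotlib 3.10.9.

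The genes and lists were chosen with earlier results of these data known. Named were the 8 genes, their receptors, Gli1 and Hhip, the 2 genes of smallest p in each pathway list, the 2 tested genes most like each tested gene of the 8 by Pearson r, and Ctnnb1; other genes were taken from the lists after their values were seen. An item that this rule names is not reported here.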

Additional observations from a re-analysis of the deposited data

Results flagged for a closer look

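The log2 difference of Ihh had opposite signs in the male and the female libraries. Ihh was picked by a rule for genes whose mutant libraries lay above the controls in 1 sex and below in the other. How many of all genes meet that rule was not counted. In male libraries, marked by Y-linked genes, mutant replicate 1 (24.6 units) lay above control replicates 1 and 2 (13.4 and 15.6 units), a log2 difference of 0.72. In female libraries, mutant replicates 2 and 3 (16.1 and 25.6 units) lay below control replicate 3 (26.6 units), a log2 difference of -0.37. The difference between the sexes was not tested, and each sex has a group of 1 library. The summed enterocyte markers of the same libraries were 11357 against 3256 and 4574 units in males, and 5281 and 22519 against 9021 units in females.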

How the results depend on the processing

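In limma, 0 of the 8 genes passed the adjusted threshold with other pseudocounts, no filter, other scalings, array weights, a replicate block, sex as a covariate or a library left out, and with a minimum mean of 5 units 0 of the 2 genes tested (Ihh and Pdgfa) passed. Directions held for 7 of the 8 genes. The log2 difference of Fgf18 turned to -0.046 with array weights and, with a library left out, ran from -0.046 (without mutant replicate 3) to 0.10. Over all genes, 2 passed in the fit reported, against 1 with a pseudocount of 5, 0 with no filter, 27 with array weights, 0 with sex as a covariate, and 0 to 4 when each library was left out. Ihh ran from 0.08 to 0.55 with a library left out and was 0.49 with array weights. Of the 24 tested pathway genes 10 were higher and 14 lower, against 14 and 10 with array weights or with sex as a covariate, and from 8 and 16 (without mutant replicate 1) to 14 and 10 (without control replicate 2) with a library left out. Of these genes, 0 to 1 passed with a library left out, the 1 being Fgf1 without control replicate 2. The cause of these shifts was not tested. With the replicate block 0 genes passed. Same-numbered libraries had correlations of -0.29, 0.33 and 0.32 between their deviations from the group means. Control replicate 1 correlated best with mutant replicate 2, at 0.21. Control replicates 2 and 3 each correlated best with the mutant replicate of the same number. With 3 libraries per group these values cannot show whether the numbers mark pairs. Depth limits Shh and Fgf18, which rest on about 10 reads or fewer in each library.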
